A study of Homo sapiens with 26 samples.

Results

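EZH2 is the catalytic subunit of Polycomb repressive complex 2 (PRC2), which methylates histone H3 on lysine 27 and keeps genes silent. PRC2 also binds RNA, and which RNAs it contacts in cells is often asked by RNA immunoprecipitation sequencing (RIP-seq), in which RNA that co-precipitates with a protein is made into a library. In the ligation-based small RNA kit used here, an adapter is joined to the 3′ end of each RNA, and the reverse transcription primer is the complement of that adapter. A primer that anneals to RNA resembling the start of the adapter can begin a cDNA without ligation, which is the mispriming named in the title of the study.

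The exons described here were called as EZH2-associated small RNA targets in both glioblastoma lines, U87MG and T98G, and were not called in K562, a chronic myeloid leukaemia line. They were selected by overlap of the authors' 3 deposited lists: a U87MG row was kept if it shared at least 1 base with a T98G row, on either strand, and none with a K562 row. This gave 357 of the 669 U87MG exons (53.4%), out of 3022 distinct exons called in any line. Membership of the 3 lists chose the exons and is therefore a description, with no test.

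The series holds 26 libraries in 15 groups. Small RNA selected at 20 to 50 bases was sequenced from EZH2 immunoprecipitates, IgG immunoprecipitates and input, with 2 libraries of each kind in T98G, 2 in U87MG and 1 in K562. The labels name no treatment for these libraries. Further T98G libraries hold fragmented long RNA (2 each of EZH2, IgG and input) and 1 EZH2 iCLIP, in which RNA is crosslinked to the protein first, and U87MG cells given siRNA against EZH2 (siEZH2) or GFP (siGFP) gave 2 libraries each. Each cell line is a single established line, so a difference between lists is one between these lines and libraries, and K562 had fewer libraries behind its 397 calls. The deposited lists give regions and no value per library; depth is unknown, no replicate error could be computed, and the 95% Wilson intervals below cover counting error over exons or genes only.

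With the T98G peak placed as described next, some of the exons held the start of the adapter just downstream of the RIP peak. The T98G list records a signed distance between peak and exon middle, and the rule used no position within an exon. The sign is not stated; it was settled from these same adapter bases over the whole T98G list, so the match downstream is partly fixed by that choice and is given as a description. In 346 of the 357 exons the peak middle fell on a boundary between bases, and base 11 below means the 11th base after it in the direction of transcription. Of the 346 peaks, 12 were followed at starts 11 to 15 by AGATCGG, the 7 bases with which the 3′ adapter of the kit begins, and none held these bases at starts 31 to 35. Of these, 6 are shown because they carry the longest matches. Each is given 5′ to 3′ on the RNA strand from 20 bases before to 30 bases after the peak middle, from GRCh37, with the adapter bases in capitals.
PARD3B (chr2:205829908-205829957, plus strand, exon 3 of 23): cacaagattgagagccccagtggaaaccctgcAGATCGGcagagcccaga
HTT (chr4:3127296-3127345, plus strand, exon 11 of 67): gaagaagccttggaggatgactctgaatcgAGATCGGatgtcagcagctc
DST (chr6:56496743-56496792, minus strand, exon 29 of 104): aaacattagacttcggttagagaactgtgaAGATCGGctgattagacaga
DOCK1 (chr10:128768981-128769030, plus strand, exon 2 of 52): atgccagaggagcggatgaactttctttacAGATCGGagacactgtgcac
ATM (chr11:108098525-108098574, plus strand, exon 3 of 63): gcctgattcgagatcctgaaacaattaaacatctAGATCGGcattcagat
LRP1 (chr12:57590017-57590066, plus strand, exon 55 of 89): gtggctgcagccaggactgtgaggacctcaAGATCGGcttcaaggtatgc

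These 6 exons overlap coding sequence of genes with unrelated roles. DST is a spectraplakin that ties actin to other filaments, and PARD3B is a cell polarity protein. HTT is huntingtin, DOCK1 activates the GTPase Rac, ATM is a kinase of the DNA break response, and LRP1 is an endocytic receptor. The match began at base 11 in HTT, DST, DOCK1 and LRP1, at base 13 in PARD3B, and at base 15 in ATM. In each of the 6 the 21 bases at the peak occurred once in the genome.

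Shorter matches were more frequent. The first 4 adapter bases, AGAT, began at starts 11 to 15 in 98 of 346 peaks (28.3%, interval 23.8 to 33.3), against 12 peaks (3.47%) at starts 31 to 35. With the other sign of the distance 9 of the 346 peaks held it at starts 11 to 15. The first 3 bases were found in 47.7% of peaks and the first 5 in 17.1%, against 11.8% and 1.16% at starts 31 to 35. By the longest match in the window, 181 peaks held fewer than 3 adapter bases, 67 held 3, 39 held 4, 39 held 5, 8 held 6 and 12 held 7. No match of 3 bases was therefore present in 52.3% of peaks. The window had been chosen in earlier work on the whole T98G list, these exons included, so its height is a description. None of the 98 matches reached past the 3′ end of the exon.

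The match was concentrated at 1 base. AGAT began at base 11 in 50 peaks (14.5%), at base 12 in 22 (6.36%), and per position from 31 to 50 in 0.52% on average. It was the most frequent 4-base word at base 11, where the next, AAGA, began in 13 peaks (3.76%). Purines also marked the region: they made up 73.7% of bases 11 to 13, 54.6% of bases 14 to 15, 71.5% of bases 16 to 22 and 52.7% of bases 31 to 50. In the 248 peaks without AGAT in the window the shares were 68.7%, 59.3%, 72.8% and 52.4%. The stretch from base 16 to 22 was therefore as rich in purines in peaks that lacked the 4-base match, a value for which no test was made.

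**Figure D1:**
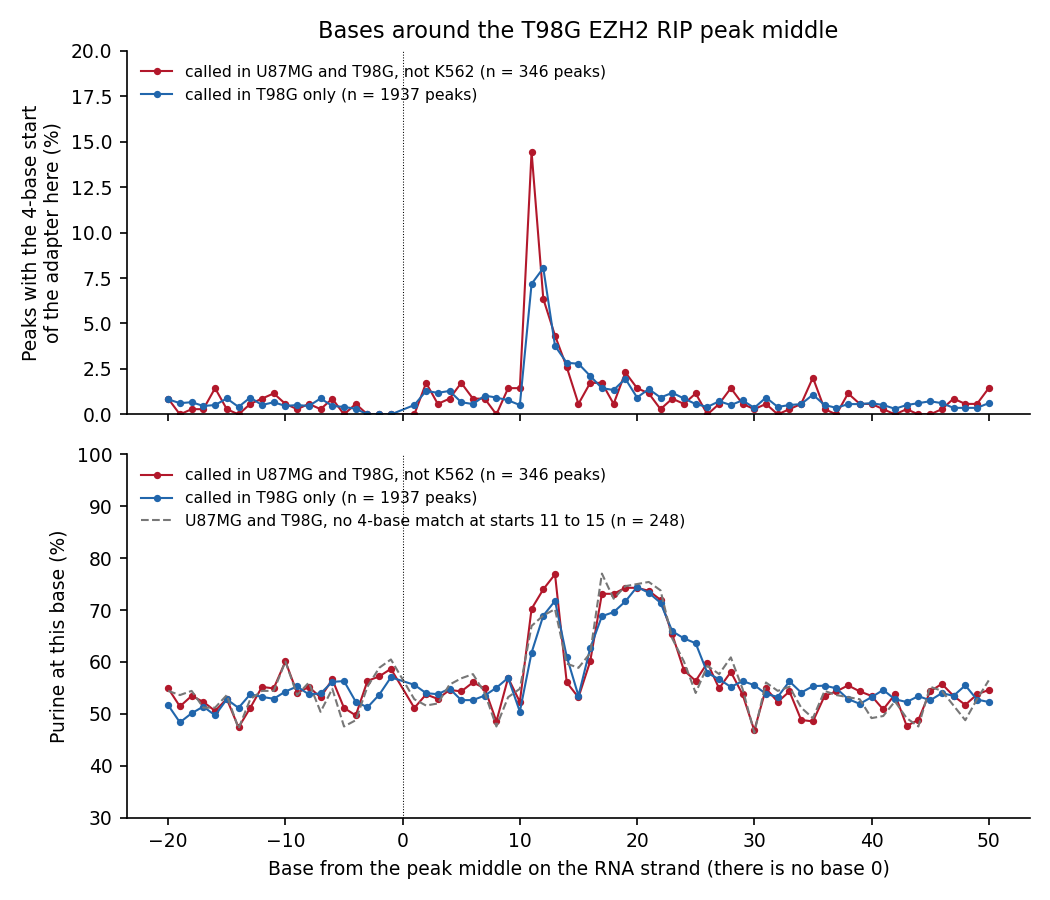
Top, share of T98G peaks (%) in which the first 4 adapter bases begin at each base from 20 before to 50 after the peak middle; bottom, share of peaks (%) with a purine at each base. Red, exons called in U87MG and T98G but not K562 (346 peaks); blue, T98G-only exons (1937 peaks); dashed, the 248 red peaks without the 4-base match at starts 11 to 15; the red line peaks at 14.5% at base 11.

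Exons called in both glioblastoma lines did not pass the test for a different share of AGAT from exons called in T98G alone. The share was 28.3% against 477 of 1937 (24.6%), an odds ratio of 1.21 (2-sided Fisher's exact test, p = 0.16, adjusted p = 0.21 over the 4 such tests made). With the first 5 bases it was 17.1% against 12.4%, an odds ratio of 1.45 (Fisher's exact adjusted p = 0.048). At base 11 alone, a setting chosen after the profile had been seen, it was 14.5% against 139 of 1937 (7.18%), an odds ratio of 2.19. Base 11 is where the 357 were highest. T98G-only exons were highest at base 12, and the order there was the reverse, with 22 of 346 (6.36%) against 156 of 1937 (8.05%). The 78 exons called in all 3 lines had AGAT in 41% of windows and at base 11 in 24.4%, values not tested against the 357. Peaks with a sequence repeated elsewhere in the genome were fewer among the 357 (8.38%) than among T98G-only exons (13.8%). The share was 7.69% in exons called in all 3 lines and 5.88% in those called in T98G and K562 only. A low share was therefore not particular to the 357. With unique peaks alone the odds ratio for the window, the 357 against T98G-only exons, was 1.17.

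**Figure D2:**
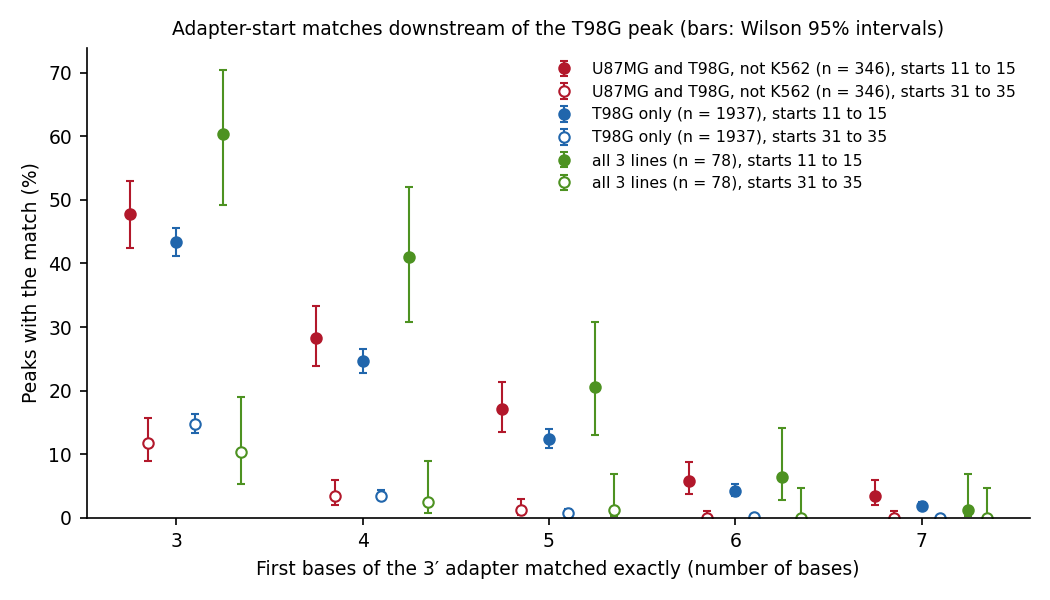
Share of T98G peaks (%) whose window matches the first 3 to 7 adapter bases, for exons called in U87MG and T98G but not K562 (red, 346), in T98G only (blue, 1937) and in all 3 lines (green, 78). Filled points are starts 11 to 15, open points starts 31 to 35, bars Wilson 95% intervals; for 4 bases the red points lie at 28.3% and 3.47%.

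The U87MG list gives no peak position, so whole exons were searched there. The 6-base word AGATCG was present on the RNA strand of 41 of the 357 exons (11.5%) and on the opposite strand of 4 (1.12%). All 7 bases were present in 19 exons on the RNA strand and in none on the opposite strand. Among exons of 100 to 300 bases 9.41% held AGATCG, against 1.97% of 232865 annotated exons of protein-coding genes of that width. U87MG exons not called in another line held it in 22 of 233 cases (9.44%), and the odds ratio of 1.24 did not pass Fisher's exact test (2-sided, adjusted p = 0.5). At widths of 100 to 300 bases they held it in 6 of 122 cases (4.92%), against 19 of 202 among the 357, an odds ratio of 2.01 that did not pass either (Fisher's exact p = 0.2).

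The 357 exons were the same annotated units in both glioblastoma lists. Both ends and the strand were identical in all 357 T98G rows, so no exon entered by a partial overlap. The closest K562 call to any of them was 123 bases away, in GANAB, the catalytic subunit of glucosidase II. On the other side of the rule, the U87MG-only exon nearest to a T98G row of the same gene was 88 bases from it, and the 78 exons shared by all 3 lines had both ends identical in the K562 list. The exons carried 338 gene symbols on 23 chromosomes, and 13 rows named more than 1 symbol.

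Most were internal coding exons. Coding bases were present in 325 exons (91%, interval 87.6 to 93.6), 8 held UTR only, 3 belonged to non-coding transcripts of coding genes and 21 to non-coding genes or pseudogenes. U87MG-only exons were coding in 221 of 233 cases (94.8%), and the odds ratio of 0.551 did not pass Fisher's exact test (2-sided, adjusted p = 0.21). Of the 330 placed in a canonical transcript, 295 were internal, 30 last, 4 first and 1 the single exon. Median width was 171 bases with quartiles at 121 and 394.5, against a median of 156 in U87MG-only exons. GC content was 44.6%.

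The extremes of width differed in position within the gene. The narrowest exons were 38 bases in FBXO7, an F-box protein, 43 bases in KIAA1715 and 50 bases in KIAA0368. The widest were the last exons of PPARA, a fatty acid-sensing nuclear receptor (8624 bases, 245 of them coding), CDS2, an enzyme of phospholipid synthesis (7786 bases), and C14orf132 (7570 bases). PPARA and CDS2 were among the 11 exons whose recorded distance did not fall on a base boundary. For the other exons the peak middle lay at a median of 84 bases from the 5′ end and 75.5 bases from the 3′ end, and outside the exon in 7 cases.

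Some peaks could not be assigned to 1 gene by their central 21 bases. The 21 bases at the peak were found at 2 or more places in the genome in 29 of 346 exons and at 10 or more in 5. PMS2, a mismatch repair gene, and its relatives PMS2P1, AC004980.8 and DTX2P1 shared a peak sequence with 14 copies, and ZFAS1, a snoRNA host gene, had 10. These exons are uncertain because reads that hold only these bases cannot be told apart between copies. Whether longer reads could be was not examined.

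Several genes contributed more than 1 exon: 24 symbols had 2, DYNC2H1 had 3, MYCBP2 had 4 and MACF1 had 5. In MACF1, a spectraplakin too, the 5 exons were numbers 26, 79, 81, 92 and 94 of 101, with widths of 170, 129, 156, 163 and 1298 bases. K562 calls in MACF1 fell on 3 other exons, 2 of them also called in T98G and U87MG. In MYCBP2, a very large ubiquitin ligase, the exons were numbers 17, 47, 68 and 78 of 83, and K562 had no call in the gene. None of the 4 MYCBP2 windows held AGAT. In DYNC2H1, the dynein heavy chain of cilia, exons 23, 31 and 61 of 89 were shared by both glioblastoma lines, T98G had 6 further calls, and the windows of exons 31 and 61 held 5 and 4 adapter bases. The window of exon 23 held 3, so the match varied among the exons of this gene.

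**Figure D3:**
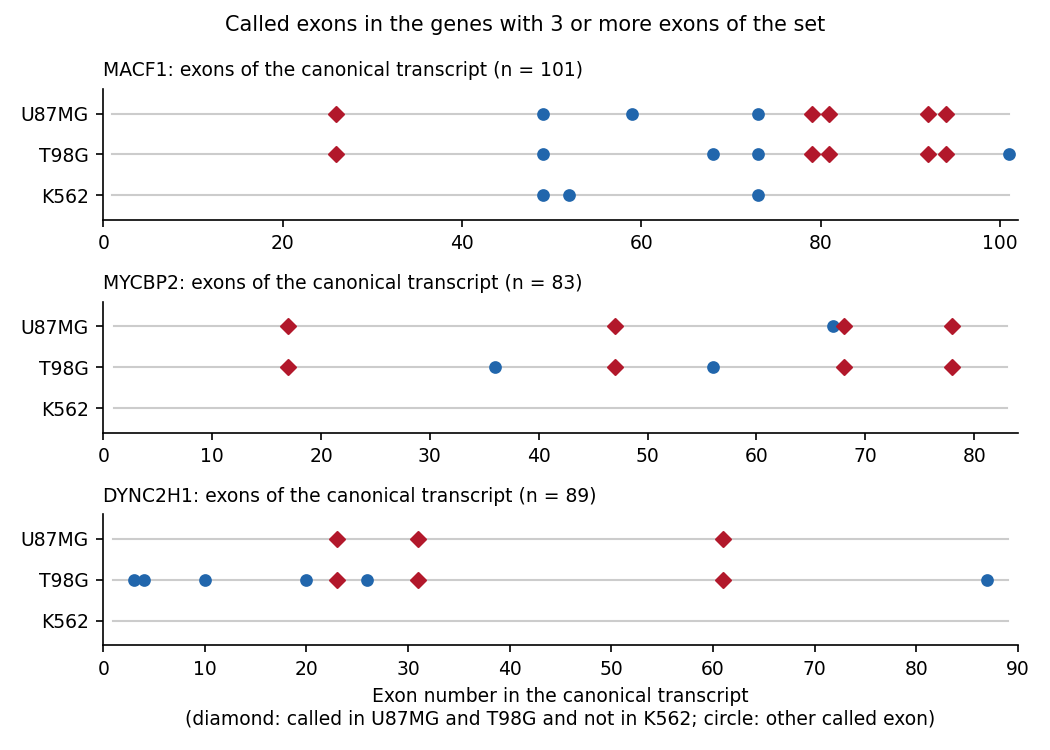
Called exons by number in the canonical transcript (x axis) for U87MG, T98G and K562 in MACF1, MYCBP2 and DYNC2H1. Diamonds are exons called in U87MG and T98G and not in K562 (5, 4 and 3 exons); circles are other called exons, and K562 has none in MYCBP2 or DYNC2H1.

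Absence from the K562 list did not always mean absence of the gene. In 32 of the 338 symbols another exon was called in K562, which touches 41 of the 357 exons. After GANAB the closest such pairs were in CCNL1, a cyclin of splicing speckles (312 bases apart), NASP, a histone chaperone (847 bases), FLNA, an actin crosslinker (1067 bases), and MACF1 (2320 bases). In the T98G list 132 of the symbols also had an exon that U87MG lacked, and 27 had a U87MG-only exon.

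The genes were long and had many exons. The median canonical transcript of the 301 coding genes with an exon in the set had 23 exons and the gene spanned 84.9 kb. The medians were 22 exons and 90.9 kb for U87MG-only calls, 16 exons and 64.9 kb for T98G-only calls, and 8 exons and 27.6 kb over all protein-coding genes. The part of gene size in the counts per gene group below was not tested.

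The genes were then counted by function, in lists written with earlier results of these data known. Across all protein-coding genes 1.5% had an exon in the set, 303 of 20149. Of 64 ubiquitin ligases and deubiquitinases 15 did, with 23 exons, among them MYCBP2, UBR4 and HERC1. Of 70 cytoskeletal and motor genes 14 did, with 22 exons, led by MACF1, DYNC2H1, DST and DYNC1H1. Of 84 PRC2 and chromatin genes 14 did, including ASH1L, a histone H3 lysine 36 methyltransferase with 2 exons, SETD5, WHSC1 and NIPBL, the cohesin loader. Of 77 RNA helicase, splicing, decay and translation genes 12 did, including SMG1, a kinase of nonsense-mediated decay with 2 exons, SFPQ and SF3B1, and of 101 membrane transport genes 12 did, including NBEA with 2 exons and COPA.

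Genes tied to the tumour type or tissue were counted in the same way. Of 47 glioblastoma driver genes 5 had an exon: MTOR, PIK3CB, MET, FGFR1 and TSC2. Of 69 extracellular matrix and adhesion genes 4 had one: COL7A1, PTPRK, TNC and ITGB1. Among 10 markers of glia and mesenchymal glioma only TNC did, and 1 of the 10 had a K562 call. Among 15 erythroid and leukaemia markers none did, while PTPRC and TFRC had K562 calls. The lists hold calls and not expression levels, so the identity of the lines was not checked against their markers.

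More of the 357 exons lay in genes of the authors' full-length EZH2 target list from T98G than did T98G-only exons. It was 65 of 357 (18.2%, interval 14.5 to 22.5) against 228 of 2035 (11.2%, interval 9.91 to 12.6), an odds ratio of 1.76 (2-sided Fisher's exact test, p = 0.00043, adjusted p = 0.0017). Over all T98G exons 12.2% did, and U87MG-only exons did in 35 of 233 cases (15%). Exons called in all 3 lines did in 13 of 78 cases (16.7%), and those called in T98G and K562 only in 7 of 103 (6.8%). Over the whole U87MG list the share was 16.9%, so a share near that of the 357 was found in other U87MG calls too. The 65 exons fell in 56 of the 824 full-length targets, among them MTOR, UBR4, DYNC1H1, HUWE1 and FLNA. The full-length list and the T98G call come from the same line, and gene size, given above, differed between these sets too; its part was not tested.

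Genes with an exon in the set that appear in the authors' deposited siEZH2 table mostly had values below 0, which reads as lower under siEZH2 if the table's order of names, siEZH2 over siGFP, is its direction. No row of EZH2 itself was used here to check this direction, and the treatment label of siEZH2 replicate 2 names EZH3 where its title names EZH2. Lower and higher below follow that reading. The table lists genes with an adjusted p below 0.05 and held 39 of the 338 symbols. The authors' deposited log2 fold change, siEZH2 over siGFP, was below 0 for 34 and above 0 for 5 (87.2% lower), whereas 50.7% of all 1342 rows were lower. Among the 7 with an absolute value of at least 1 it was 4 (57.1%). The median was -0.78 for the 39 and -0.47 for all rows. By count, 39 of 303 protein-coding genes with an exon in the set were listed (12.9%), against 6.6% of all 20149 protein-coding genes, a background that includes genes these cells may not express. Over symbols the share was 39 of 338 (11.5%). It was 24 of 198 (12.1%) for symbols of U87MG-only exons and 147 of 1602 (9.18%) for those of T98G-only exons. The share was therefore not particular to the 357. Symbols with T98G-only exons were lower in 107 of 147 cases and those with U87MG-only exons in 15 of 24, so a lean toward lower values was not limited to the 357, and no test of the difference was made.

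Among these 39 genes, F3, tissue factor, had the largest absolute value in the authors' deposited table at 1.20, followed by MYCBP2 at -1.13, ARNTL2, a clock transcription factor, at 1.11, and PANK3, a kinase of coenzyme A synthesis, at -1.10. In the authors' deposited table AMOTL2, an angiomotin family protein, stood at -1.09, UBR4 at -1.05, C14orf132 at 1.02, REV3L, the catalytic subunit of DNA polymerase zeta, at -0.998, DYNC1H1, the cytoplasmic dynein heavy chain, at -0.98, and ASCC3, a helicase, at -0.97. The other higher genes were GOLIM4 (0.78) and IL1RAP (0.68) in the authors' deposited table. All 11 listed genes that were also full-length targets were lower, among them MTOR at -0.90 and AGO2, an effector of small RNA silencing, at -0.93 in the authors' deposited table. Over all 39 it was 34 (87.2%), and the difference was not tested.

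The genes were also counted by group, beside 34 of all 39 listed genes lower (87.2%). With that share most small groups would be lower throughout, so the counts below are not particular to a group. All 5 ubiquitin genes listed (MYCBP2, UBR4, HUWE1, BIRC6, HERC1) were lower in the authors' deposited table, with a median of -0.96. The same held for all 3 cytoskeletal genes listed (DYNC1H1, SPTAN1, CLIP1; median -0.80) and all 3 RNA genes listed (DICER1, AGO2, EIF3A; median -0.93). Both listed transport genes, NBEA and AP1B1, were lower too, as were MTOR and PTPRK. None of the 14 chromatin genes was listed. The listed share was 12.9% of protein-coding genes with an exon in the set and 6.6% of all protein-coding genes. With shares this small, a group of 14 can hold none, and no test was made.

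**Figure D4:**
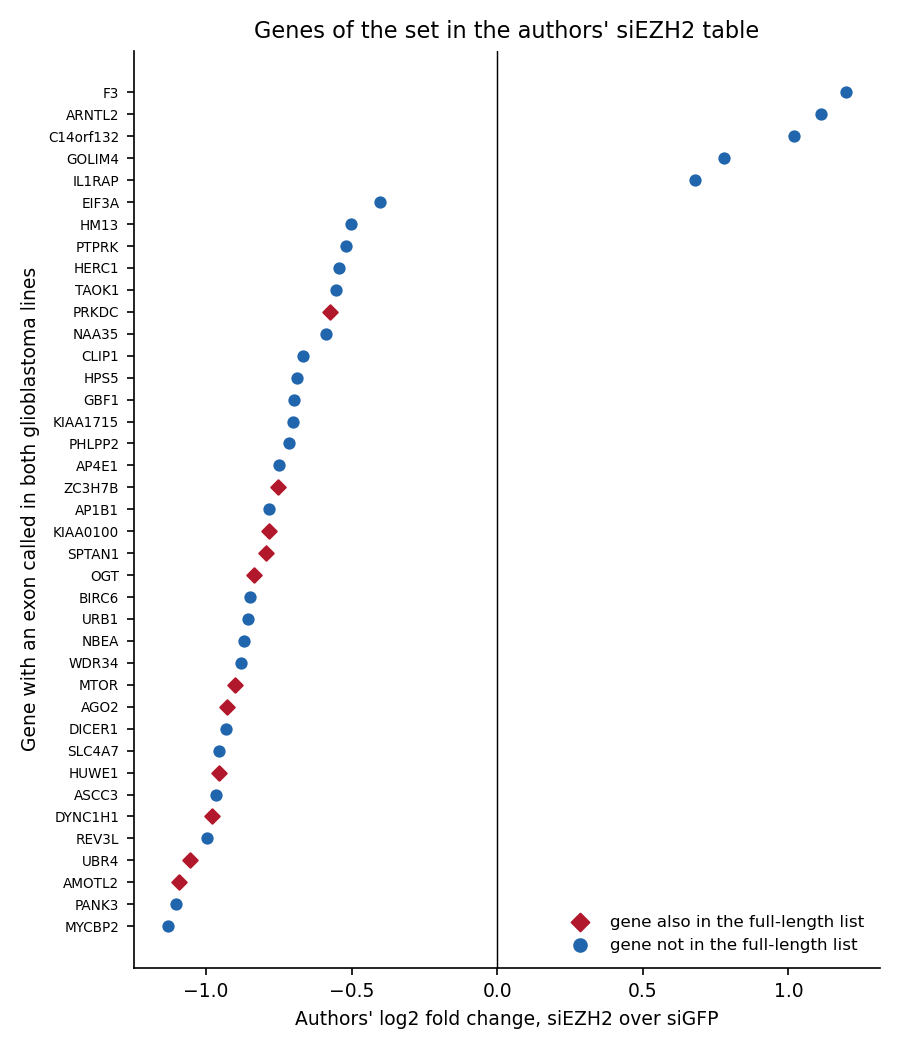
The authors' log2 fold change (siEZH2 over siGFP, x axis) for each of the 39 listed genes with an exon called in U87MG and T98G but not K562, in order of value. Diamonds are the 11 genes also in the full-length list, all below 0; 34 of the 39 points lie below 0 and F3 is highest at 1.20.

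Retained introns listed for U87MG bordered a small share of the exons. In 21 of the 357 (5.88%) the exon abutted a listed intron, sharing 2 bases with it at the boundary, and the share over the whole U87MG list was 5.98%. These exons border 23 of the 42 listed introns (54.8%), 16 on the upstream side. Each listed intron borders a U87MG exon by construction, and the 357 make up 53.4% of the U87MG list. Among the 23 introns the highest deposited score was 2.61, for the intron downstream of exon 2 of DOCK1, the exon printed above. LRIG2, a leucine-rich repeat membrane protein, followed with 2.54, and FBXW7, a substrate receptor of a ubiquitin ligase, with 2.25. The intron upstream of the same DOCK1 exon had 2.19, and that of UPF1, the helicase of nonsense-mediated decay, 1.92. In UPF1 and DOCK1 the window at the peak also held AGAT, beginning at base 11, while those of LRIG2 and FBXW7 held none.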

How the data were processed

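The exons, gene lists and tests were chosen with earlier results of these data known. Per the labels, the authors trimmed small RNA reads with cutadapt, aligned them to hg19 with BWA, used bedtools for exon counts, DESeq2 for exon calls and pyicoclip for peaks; base calling used CASAVA 1.8, per the submitters' processing notes. Thresholds and the exon annotation are not given in the sources used here. The authors deposited log2 fold changes for siRNA genes, called with featureCounts and DESeq2 from Tophat alignments made without strand, per the labels. Retained introns carry a deposited score whose scale is not given in the sources used here. In the T98G list the authors deposited a signed distance between exon and peak middle; exon middle minus distance gave the peak middle, a sign settled from the adapter bases themselves over the T98G list. Other value columns count joined names. Columns with values of a single library numbered 0.

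Exons were compared with GRCh37 and GENCODE release 44 mapped to it (Python 3.11.15, scipy 1.17.1). The adapter start is general knowledge about the kit, as the labels do not give it. Older gene symbols were resolved through RefSeq synonyms. The 4 Fisher tests were 2-sided, with Benjamini-Hochberg adjustment and a threshold of 0.05. Functions were checked on made-up regions. Genes were named by rule: 3 or more exons, the 10 largest siEZH2 values and members of the lists in that table, the 5 highest intron scores, the first 8 exons with 7 adapter bases (some items are not reported here), the 5 nearest K562 calls, 3 widest, 3 narrowest and 2 to 4 per list. Other named genes, such as PMS2, ZFAS1, GOLIM4 and IL1RAP, were chosen after their values were seen. Alternatives for overlap, strand, motif, window and 1 exon per gene were tried.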

Additional observations from a re-analysis of the deposited data

How the results depend on the processing

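No paired analysis was possible because the deposited lists hold no values for single libraries; for the same reason no replicate could be left out. The set kept 357 exons when 50% of the smaller exon, the same strand or identical ends were required, and 354 without exons within 1000 bases of a K562 call. The full-length odds ratio stayed between 1.76 and 1.79. For AGAT after the peak, the odds ratio was 0.769 with the other sign of the distance and 0.987 at starts 31 to 35. It was 1.45 with AGATC (Fisher's exact adjusted p = 0.048) and 2.19 at base 11 alone. Base 11 was chosen after seeing the data, where the 357 were highest, so no p-value is given for it. Limits to unique peaks, to widths of 100 to 300 bases and to coding exons gave 1.16 to 1.23. They too were chosen after seeing the data. The odds ratio for AGATCG was 0.869 on the opposite strand, where 4 and 3 exons held it. Of listed genes with an absolute log2 fold change of at least 1, 57.1% (4 of 7) were lower, and 12 exons bordered a higher-scoring retained intron. In those cases the cause was not tested. Depth is unknown, and exons of 1 gene are not independent.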

Other observations

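A family outside the gene groups above stood out when the symbols were read, so it was chosen after the calls had been seen and has no test. Of the 6 phosphatidylinositol 3-kinase-related kinases, giant kinases of DNA damage, growth and RNA surveillance, 5 had an exon in the set: MTOR, ATM, ATR, PRKDC and SMG1, with 7 exons in all. TRRAP, the member without kinase activity, had 1 T98G call and none in U87MG. K562 had 1 call in ATM and none in the others. The canonical transcripts are long, with 58 exons in MTOR, 63 in ATM, 47 in ATR, 87 in PRKDC and 63 in SMG1. The longest adapter match after the peak was 7 bases in ATM, 5 in MTOR and in exon 62 of PRKDC, 4 in exon 40 of SMG1 and 3 in ATR, and exon 42 of SMG1 and exon 87 of PRKDC held fewer than 3. In the authors' deposited table MTOR stood at -0.90 and PRKDC at -0.57, and the other 3 were not listed.

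The 15 genes of the mTOR complexes and their regulators are a list also made after the calls were seen. Of these, 6 were named by 1 exon row each: MTOR, RPTOR, RICTOR, TSC2, RRAGC and FNIP1. The row of FNIP1 names RAPGEF6 first, so FNIP1 is counted by a second name only. TSC1 had 4 T98G calls and none in U87MG. RPTOR exon 32 held 6 adapter bases from base 11. Of 11 genes of the microRNA machinery, DICER1, AGO2 and AGO3 had an exon in the set, and DICER1 and AGO2 stood at -0.93 each in the authors' deposited table. Of the mTOR genes with no called exon, DEPTOR stood at -2.16 and RRAGA at 0.47 in the authors' deposited table.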
